A study of Mus musculus with 8 samples.

Results

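Genes of one chemotactic circuit were followed through a single-cell survey of mouse tumours: the chemokines Ccl2, Ccl7, Ccl8 and Ccl12, the chemokine receptor Ccr2, and the fractalkine receptor Cx3cr1. They were taken by name from the gene lists of the deposited matrices, and all 6 members were present in all 4 libraries, among 27405 genes in the union of the lists. The libraries held CD45+ cells sorted from MC38 tumours, MC38 being a mouse colon carcinoma line, grown in wild-type mice. 2 libraries came from mice of the treatment group named LNP-Sirpa and 2 from control mice. The labels used here do not spell out the LNP-Sirpa agent, and they do not give what the control mice received, the dose, the time after treatment or the age of the mice. All 4 libraries carry one batch label. The labels do not say whether replicates of a group are different animals. The p-values therefore rest on the spread within pairs of libraries, and that spread may be technical.

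Ccl2, Ccl7, Ccl8 and Ccl12 are small secreted proteins of the monocyte chemoattractant family. Ccr2 is a G protein-coupled receptor carried by classical, Ly6c2-high monocytes, and binding of Ccl2 or Ccl7 to it draws these cells out of the bone marrow and into inflamed tissue and tumours, where they mature into macrophages. During that maturation mouse monocytes typically lose Ccr2 and gain Cx3cr1, the receptor of the membrane-tethered chemokine Cx3cl1, which is also the hallmark receptor of patrolling, Ly6c2-low monocytes. Ccl12 is a mouse gene with no direct human counterpart, and Ccl8 is known in mice mainly as a macrophage product that can act through Ccr8.

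The 4 chemokine genes are neighbours. In the RefSeq gene order of mouse chromosome 11 they run Ccl2, Ccl7, Ccl11, Ccl12, Ccl8 and Ccl1. On chromosome 9, Ccr2 lies next to Ccr3. The RefSeq promoter table matched 4 of the 6 members, Ccl8, Ccl12, Ccr2 and Cx3cr1. Promoters are shown for the matched ligands Ccl8 and Ccl12, and for Cx3cr1, the member that differed between the treatment groups. The sequences are from the table of build GRCm38.p6, run from 250 bases before to 50 bases after the annotated start, and are written 5′ to 3′ on the gene's own strand. Capitals mark matches to the motifs searched. The windows are chr11:82114935-82115234 on the plus strand for Ccl8, chr11:82101595-82101894 on the plus strand for Ccl12, and chr9:120068247-120068546 on the minus strand for Cx3cr1.
Ccl8: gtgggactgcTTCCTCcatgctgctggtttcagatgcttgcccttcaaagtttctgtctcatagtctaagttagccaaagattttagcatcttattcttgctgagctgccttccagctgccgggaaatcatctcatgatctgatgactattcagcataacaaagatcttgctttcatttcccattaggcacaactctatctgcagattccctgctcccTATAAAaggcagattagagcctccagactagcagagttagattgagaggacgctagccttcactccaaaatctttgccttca
Ccl12: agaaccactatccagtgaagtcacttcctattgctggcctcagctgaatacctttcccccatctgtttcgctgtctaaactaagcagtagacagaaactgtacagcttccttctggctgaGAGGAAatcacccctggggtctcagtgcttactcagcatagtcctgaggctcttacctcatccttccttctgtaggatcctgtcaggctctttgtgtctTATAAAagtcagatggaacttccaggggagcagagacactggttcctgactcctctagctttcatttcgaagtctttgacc
Cx3cr1: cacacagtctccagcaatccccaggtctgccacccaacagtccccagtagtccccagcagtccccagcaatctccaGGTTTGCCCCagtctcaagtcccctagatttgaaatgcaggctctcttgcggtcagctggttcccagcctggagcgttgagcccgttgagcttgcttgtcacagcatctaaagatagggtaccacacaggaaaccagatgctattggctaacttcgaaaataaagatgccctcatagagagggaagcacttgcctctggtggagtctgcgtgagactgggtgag
6 motifs were searched on both strands: the kappaB motif (GGG and CC set 5 bases apart), the interferon-stimulated response element (a pair of GAAA runs set 2 bases apart), the STAT motif TTCNNNGAA, the AP-1 motif TGANTCA, the PU.1 motif GAGGAA and the TATA box TATAAA. The Ccl8 and Ccl12 promoters shared a pattern: each held a TATA box, at -32 in Ccl8 and -31 in Ccl12, and each held the PU.1 letters, at -240 on the minus strand (printed TTCCTC) in Ccl8 and at -130 in Ccl12. Of 32851 mouse promoters in the table, 13.6% held the TATA box letters and 28.3% the PU.1 letters. The Cx3cr1 window held neither, and its one match was the kappaB motif on the minus strand at -174, a motif found in 50.8% of the promoters. The Ccr2 window, also in the table, held none of the 6 motifs. A match of letters describes the sequence and does not show that a factor binds there.

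The 4 libraries held 10348, 9008, 7511 and 10890 cell barcodes (LNP-Sirpa 1, LNP-Sirpa 2, control 1, control 2, the order of every set of 4 values given here) and 68654004 to 90789729 UMIs, and 3 to 16 barcodes per library failed the filter on UMIs, genes or mitochondrial share. Pairs of libraries shared 830 to 1242 barcode sequences, and no pair of cells sharing a barcode had identical counts. Cells were placed in gates by the UMIs of marker lists per 10000 UMIs of the cell. Phagocytes formed the largest gate with 5133, 6216, 5622 and 7832 cells and were divided into a macrophage gate (C1qa, C1qb, C1qc, Apoe and others), a monocyte gate (Ly6c2, Plac8, Chil3 and others) and cells between or above both. The monocyte gate held 1306, 1543, 286 and 226 cells. The leading genes of the monocyte gate over the other cells included Chil3 and Plac8, and also Inhba and Cxcl3, genes of an inflammatory macrophage list. Although CD45+ cells were sorted, 208 to 393 cells per library carried fibroblast markers, with 51.3, 30.1, 35.6 and 32.1 CPM (counts per 1000000 UMIs of the gate) of Ptprc, the CD45 gene, against 427, 366, 263 and 285 CPM in phagocytes. Cells with phagocyte or neutrophil markers and markers of another class, 386 to 1842 per library, were left out as mixed unless a gate kept them. A further 11 to 141 per library had markers of several lymphoid, mast or stromal classes and were left out too. Sirpa itself, the inhibitory receptor that binds CD47, stood at 471 and 353 CPM in LNP-Sirpa phagocytes and 550 and 551 CPM in control phagocytes. Its fitted difference did not pass the test (log2 fold change -0.29, SE 0.19, adjusted p = 0.449 by edgeR's quasi-likelihood test with Benjamini-Hochberg adjustment).

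Phagocytes were the main source of all 4 chemokine transcripts and of both receptor transcripts. The phagocyte gate held 61.2%, 83.7%, 84.3% and 81.0% of all Ccl2 UMIs, and 55.7%, 80.9%, 87.7% and 79.8% of all Ccl8 UMIs. In LNP-Sirpa 1 the share was the lowest for each member, and in that library the cells with mixed markers held 23.8% of the Ccl2 UMIs and 38.7% of the Ccl8 UMIs. For comparison, the phagocyte gate held 44.3%, 70.1%, 71.0% and 66.6% of the UMIs of all genes. Macrophages alone carried 48.5%, 72.5%, 82.1% and 77.02% of Ccl8 but 24.97%, 24.8%, 47.8% and 65.3% of Ccr2, beside 24.7%, 37.1%, 53.9% and 57.7% of the UMIs of all genes. These shares count cells and RNA per cell together, so a larger gate and a higher level cannot be told apart in them.

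**Figure D1:**
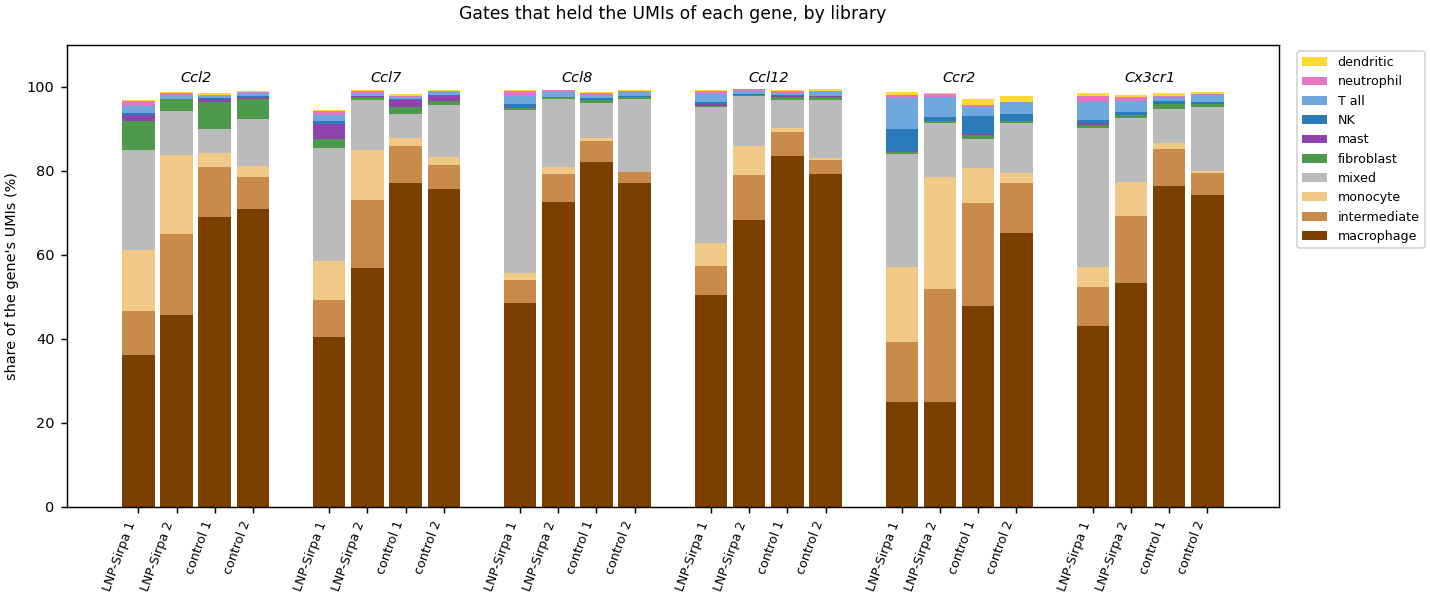
Share of each gene's UMIs (%, vertical axis) that each cell gate contributed, one stacked bar per library. The LNP-Sirpa libraries stand left of the control libraries, and phagocytes are divided into macrophage, monocyte and in-between cells. B cells and unplaced cells are not drawn. Cells with markers of several lymphoid, mast or stromal classes, which held 4.99% of Ccl7 in LNP-Sirpa 1, are not drawn either. Phagocytes together made the largest contribution for every member, and in LNP-Sirpa 1 the cells with mixed markers took 23.8% of Ccl2 and 38.7% of Ccl8.

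Ccl2, the archetypal ligand of Ccr2, was found in macrophages, monocytes, mast cells and stromal cells. It was measured at 728, 870, 977 and 661 CPM in macrophages and at 755, 1002, 847 and 1078 CPM in monocytes, ranges that overlapped. Mast cells, of which there were only 4 to 98 per library, had 827 to 1225 CPM. Fibroblasts reached 533, 471, 553 and 426 CPM, which was 73.2%, 54.1%, 56.6% and 64.4% of the macrophage level. The C1q transcripts, which fibroblasts do not make, stood at 3.95% to 7.09% of their macrophage level in the same fibroblast cells. CD8 T cells had 81.8, 95.4, 134 and 94.8 CPM, and neutrophils 396, 400, 557 and 205 CPM. The neutrophil level was 54.4%, 45.9%, 57.1% and 31.0% of the macrophage level, beside 38.9%, 35.0%, 47.7% and 50.3% for the C1q transcripts. The neutrophil gate admitted cells over the phagocyte threshold. The parts of such cells and of free RNA in its Ccl2 were not tested.

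Ccl7, which also binds Ccr2, had its highest level in mast cells. The mast gate held 5017, 5437, 5451 and 6203 CPM, and macrophages 2018, 2146, 1933 and 1546 CPM, so the ranges were apart. Mast cells nevertheless contributed only 3.57%, 0.173%, 1.58% and 1.19% of the Ccl7 UMIs, and the treatment groups were not tested in this small gate. When each cell was thinned to 2000 UMIs, 94.1% to 100% of mast cells had a Ccl7 UMI (the 100% rests on 3 cells), against 65.0% to 79.1% of macrophages and 22.8% to 33.9% of T cells, whose share gives the level of free RNA. In monocytes Ccl7 varied most between the controls, with 1192 and 1226 CPM in the LNP-Sirpa libraries and 800.2 and 1627 CPM in the control libraries.

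Ccl8 was a macrophage transcript. Macrophages held 1812, 849, 438 and 1176 CPM, and monocytes 165, 56.9, 54.6 and 97.7 CPM. CD8 T cells of the same libraries held 144, 58.5, 101.9 and 188 CPM, so monocytes were above CD8 T cells in LNP-Sirpa 1 alone, and there all T cells together held 196 CPM. After thinning, 21.4%, 7.74%, 10.2% and 19.8% of monocytes had a Ccl8 UMI, against 28.0%, 9.86%, 10.7% and 26.5% of T cells, and the monocyte share is therefore read as background. The macrophage level spread widely within both groups, highest in LNP-Sirpa 1 and lowest in control 1.

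Ccl12 followed macrophages as well. It stood at 1879, 982, 1951 and 955.5 CPM in macrophages and at 521, 274, 337 and 249 CPM in monocytes. In fibroblasts it was at 59.8, 33.5, 106 and 92.0 CPM, and in CD8 T cells at 163, 59.4, 301 and 144 CPM. The CD8 T cell level of Ccl12 was 8.69%, 6.05%, 15.4% and 15.1% of the macrophage level, close to the 8.63%, 7.31%, 15.7% and 15.2% of the C1q transcripts there. In macrophages the libraries were not in the same order for Ccl12 and Ccl8: LNP-Sirpa 1 was high in both, LNP-Sirpa 2 low in Ccl12 and mid-range in Ccl8, and control 1 high in Ccl12 and lowest in Ccl8.

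**Figure D2:**
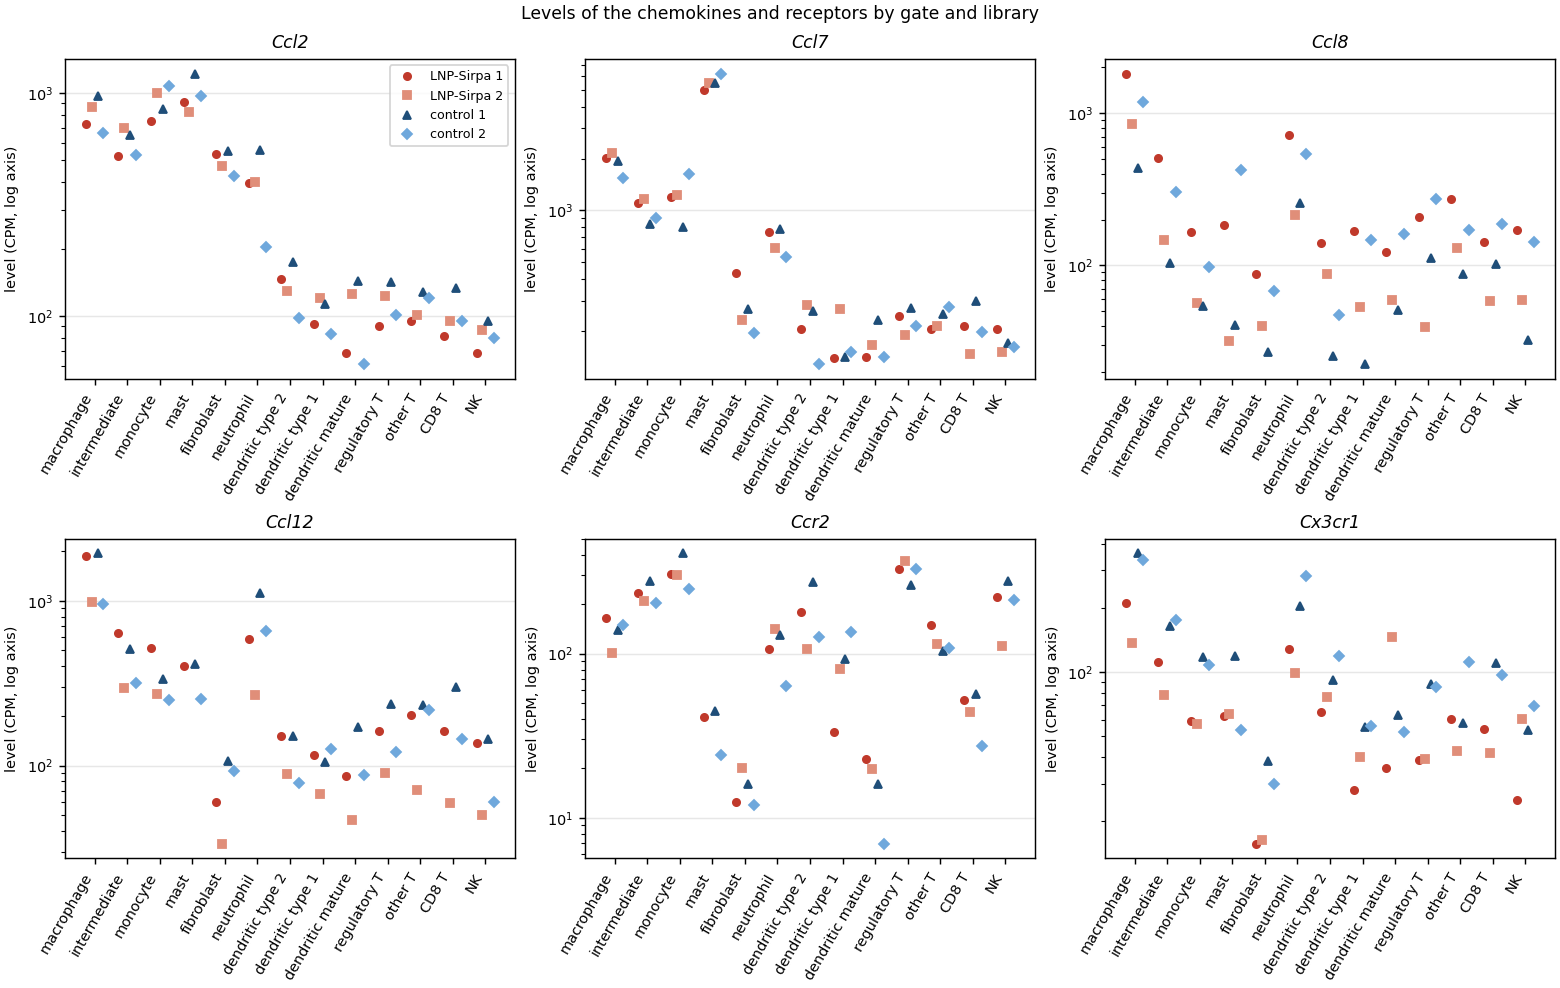
Level of each member (CPM of summed UMIs, log axis) in each gate, one point per library with LNP-Sirpa left of control. Ccl8 and Ccl12 are highest in macrophages, Ccl7 in mast cells (5017 to 6203 CPM), Ccl2 is at 426 to 553 CPM in fibroblasts, and Ccr2 is as high in regulatory T cells as in monocytes.

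Transcripts of Ccr2, the receptor of Ccl2 and Ccl7, were found in monocytes and also outside the phagocytes. Monocytes held 306, 303, 409 and 247 CPM and macrophages 166, 101.5, 139 and 149 CPM, so every monocyte value lay above every macrophage value. Regulatory T cells, gated on Foxp3, held 328, 365, 261 and 328 CPM, which overlapped the monocyte range, whereas CD8 T cells held 52.6 and 44.1 CPM in the LNP-Sirpa libraries and 56.6 and 27.3 CPM in the control libraries. NK cells held 223, 112, 276 and 212 CPM. The low value belongs to LNP-Sirpa 2, whose NK gate also had the lowest median depth, 2825 UMIs against 5842 to 9272.5 UMIs in the others, and 2808 CPM of T-cell markers against 879 to 1194 CPM. The part of those features in its Ccr2 value was not tested.

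After thinning to 2000 UMIs, 36.8%, 39.4%, 48.0% and 36.9% of monocytes had a Ccr2 UMI, with 95% Wilson intervals between 30.3% and 54.2% that cover counting error only. Regulatory T cells gave 45.5%, 42.1%, 31.2% and 41.0%. Fibroblasts, which should lack the receptor, gave 0.811%, 3.59%, 2.60% and 1.67%, from cells with a median of 12154.5 to 14139 UMIs before thinning, against 4886 to 6824 UMIs for monocytes. Without thinning the shares were 59.8%, 61.5%, 64.7% and 50% in monocytes and 8.65% to 14.6% in fibroblasts. Over the gates and subsets ordered by their mean, no neighbours in the order of Ccr2 levels had separate ranges.

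Cx3cr1 had its highest mean level in macrophages, with a range that overlapped the 98.8 to 282 CPM of neutrophils. The neutrophil gate also held 7156 to 13848 CPM of macrophage markers. The parts of free RNA and of cells with phagocyte markers in its Cx3cr1 were not tested. In LNP-Sirpa 2 mature dendritic cells held more than macrophages, 146 CPM, a value from 30 cells. The mean of mature dendritic cells over the 4 libraries was 74.2 CPM. Macrophages held 210 and 137 CPM in the LNP-Sirpa libraries and 361 and 337 CPM in the control libraries. Monocytes held 59.3 and 57.2 CPM in the LNP-Sirpa libraries and 117 and 108.1 CPM in the control libraries. CD8 T cells held 54.2 and 41.7 CPM in the LNP-Sirpa libraries and 110.01 and 97.3 CPM in the control libraries. The thinned share of monocytes with a Cx3cr1 UMI was 8.54%, 9.32%, 18.4% and 19.3%, close to the 8.38%, 8.19%, 17.8% and 15.7% of T cells. Fibroblasts gave less, 2.16%, 4.10%, 7.23% and 5.28%. The CD8 T cell level was 25.8%, 30.4%, 30.5% and 28.9% of the macrophage level, 1.90 to 4.16 times the matching C1q percentage. Cx3cl1, the ligand, was near 0 in phagocytes, with 2.05 and 0.707 CPM in the LNP-Sirpa libraries and 1.27 and 1.14 CPM in the control libraries.

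**Figure D3:**
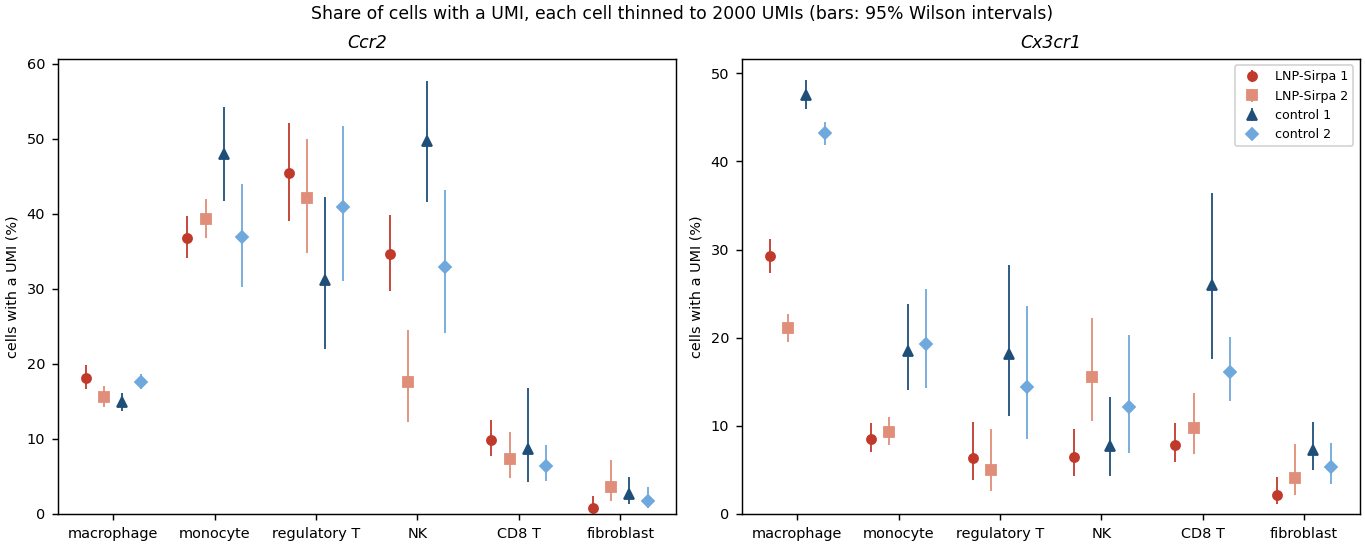
Share of cells with at least 1 UMI (%, vertical axis) of Ccr2 and of Cx3cr1 after thinning each cell to 2000 UMIs, by gate, one point per library with 95% Wilson intervals, LNP-Sirpa left of control. Ccr2 is found in 36.8% to 48.0% of monocytes and 31.2% to 45.5% of regulatory T cells, and Cx3cr1 in 29.3% and 21.1% of LNP-Sirpa macrophages and 47.6% and 43.2% of control macrophages.

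The monocyte gate was then compared with the macrophage gate of the same library, a contrast in which the members played no role in the gating. Ccr2 was higher in monocytes (log2 fold change 1.27, SE 0.14, adjusted p = 8.81e-05), while Ccl8 (-3.44, SE 0.15, adjusted p = 5.79e-08), Ccl12 (-1.97, SE 0.11, adjusted p = 5.23e-10) and Cx3cr1 (-1.51, SE 0.09, adjusted p = 8.31e-10) were lower. All 4 of these differences had the same direction in 4 of 4 libraries. 4 of 6 members were thus called at an adjusted p under 0.05, where 33.7% of the 14203 genes tested were called. Since monocyte Ccl8 is near the level of T cells, its fold change sets macrophages against a value close to background. The thinned Cx3cr1 share of monocytes was also close to that of T cells, but above that of fibroblasts in each library. Whether the same limit holds for Cx3cr1 was not tested. Ccl2 (0.26, SE 0.12, adjusted p = 0.104) and Ccl7 (-0.62, SE 0.23, adjusted p = 0.107) did not pass. Ccl2 passed when Ly6c2 and Plac8 were left out of the monocyte markers (0.37, adjusted p = 0.0467), with stricter gates (0.60, adjusted p = 0.00201) and without control 1 (0.34, adjusted p = 0.0232). Ccl7 passed with DESeq2 (-0.59, adjusted p = 0.00888), without control 2 (-0.88, adjusted p = 4.32e-05) and without LNP-Sirpa 1 (-0.64, adjusted p = 1.46e-05). The treatment by gate interaction passed for none of the 6 members by edgeR's quasi-likelihood test (adjusted p = 0.546 to 1, where 0.641% of genes were called), so a different treatment effect in monocytes and macrophages was not detected.

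The same order appeared along the macrophage score, the UMIs of the macrophage list per 10000 UMIs of each phagocyte. That list also sets the macrophage gate, so this view of the same cells is not independent of the gate contrast. Ccr2 was lower at the macrophage end in each library, with 277, 298, 337 and 213 CPM at a score under 25 and 41.9, 6.33, 54.8 and 31.2 CPM at a score of 400 or more. Ccl8 was at 107, 35.5, 30.4 and 81.9 CPM in the lowest range and at 4581, 4730, 2071 and 3801 CPM in the highest. Ccl12 was at 386, 173, 232.5 and 224 CPM in the lowest range and at 2634, 1386, 1668 and 1058 CPM in the highest. Ccl2 differed less, with 815, 1015, 727 and 958 CPM in the lowest range and 528, 822, 644 and 581 CPM in the highest, and it did not follow the score: in control 1 the ranges of 100 to 200 and 200 to 400, with 2027 and 2046 cells, stood at 978 and 980 CPM. The highest range held 145, 46, 98 and 716 cells, so its LNP-Sirpa 2 values rest on few cells.

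**Figure D4:**
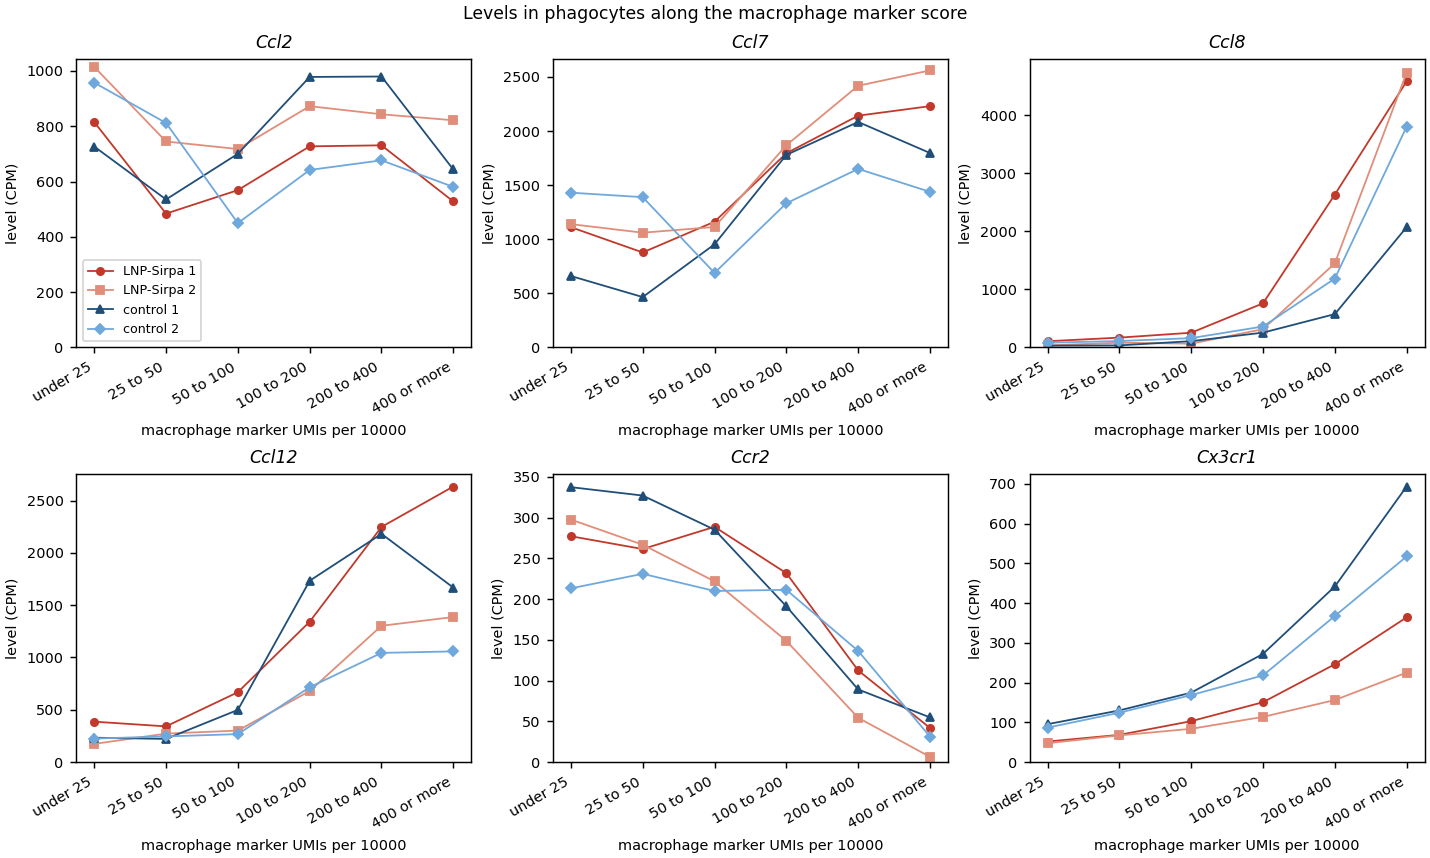
Level of each member (CPM, linear axis from 0) in phagocytes by range of the macrophage score (UMIs of the macrophage list per 10000), one line per library. Between the lowest and the highest range Ccr2 is lower and Ccl8, Ccl12 and Cx3cr1 are higher at the macrophage end, and for Cx3cr1 both LNP-Sirpa lines lie below both control lines in all 6 ranges.

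Cx3cr1 climbed with the score in all libraries and kept a gap between the groups. At a score under 25 it was at 51.6 and 47.3 CPM in the LNP-Sirpa libraries and 95.3 and 86.7 CPM in the control libraries. At 200 to 400 it was at 246 and 156 CPM in the LNP-Sirpa libraries and 442 and 368 CPM in the control libraries, and at 400 or more at 364 and 225 CPM in the LNP-Sirpa libraries and 694 and 518 CPM in the control libraries. Both LNP-Sirpa values were below both control values in each of the 6 ranges, so the gap was present within ranges of the macrophage score. The ranges come from the same 4 libraries, and the share of all genes with such a gap was not counted. In the lowest range the values lay within the 41.7 to 110.01 CPM of CD8 T cells. The part of free RNA in that gap was not tested.

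Phagocyte states were described as the top 20% of cells of each marker list (4961 of 24803 phagocytes), with the rest as the comparison. These classes are ranges of a score, and 631 to 1468 cells per list lay within 10% of the threshold. Cells high in inflammatory genes (Inhba, Cxcl3, Ptgs2 and others) held 1.44, 1.51, 1.32 and 1.56 times the Ccl2 of the other phagocytes and 0.25, 0.43, 0.49 and 0.36 times their Ccl8. Cells high in interferon-induced genes (Cxcl9, Ifit1, Isg15 and others) were the opposite, with 1.72, 2.83, 1.53 and 2.59 times the Ccl8 and 0.92, 0.76, 0.82 and 0.67 times the Ccl2. Cells high in resident-type genes (Folr2, Lyve1, Cbr2 and others) held 3.00, 1.73, 2.56 and 2.86 times the Ccl8, and 0.24 times the Ccr2 in LNP-Sirpa 1, 0.24 times in control 1 and 0.29 times in control 2.

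LNP-Sirpa 2 stood apart in the resident-type class. There the class held 147 cells, with a median of 2652 UMIs, and its Ccr2 was 1.12 times, its Ccl2 2.84 times and its Ccl7 2.497 times that of the other phagocytes, against 1.03 to 1.11 times for Ccl2 in the other libraries. Cells high in lipid-handling genes (Gpnmb, Spp1, Fabp5 and others) had the lower Cx3cr1, 0.46, 0.58, 0.50 and 0.49 times that of the rest, and 1.46, 1.70, 1.26 and 1.27 times the Ccl2. Cycling cells had 1.42, 1.46, 1.16 and 1.18 times the Cx3cr1 of other phagocytes. The summed interferon list in phagocytes was 5535 and 2811 CPM in the LNP-Sirpa libraries and 468 and 1232 CPM in the control libraries, and its part in the library differences of Ccl8 was not tested.

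The chemokines differed in how they were shared out among cells. In phagocytes thinned to 2000 UMIs, the 10% of cells with the most Ccl8 held 67.2%, 88.0%, 79.5% and 67.4% of its UMIs, and the matching shares for Ccl2 were 44.5%, 46.1%, 40.0% and 44.9%. For Csf1r, the receptor that defines phagocytes, they were 37.7%, 38.5%, 30.5% and 31.3%. Ccl8 UMIs were thus held by fewer cells than Ccl2 UMIs in each library.

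Detection of Ccl7 in a cell went with detection of Ccl2, whereas detection of Ccl8 did not. Among thinned macrophages with a Ccl2 UMI, 86.2%, 81.9%, 83.4% and 76.1% had a Ccl7 UMI, against 68.0%, 58.5%, 62.5% and 51.6% of macrophages without Ccl2. In monocytes the shares were 63.7%, 60.1%, 59.7% and 56.3% with Ccl2, against 39.7%, 36.5%, 38.3% and 23.0% without. For Ccl8 the macrophages with and without Ccl2 differed little, with 60.8%, 34.1%, 27.5% and 46.8% against 59.0%, 30.5%, 26.9% and 48.4%. The longest run of bases shared by the annotated Ccl2 and Ccl7 transcripts was 23, and the transcript reads were 100 bases long. A Ccr2 UMI was found in 12.1%, 8.19%, 6.63% and 9.56% of macrophages with Ccl8 and in 27.3%, 19.2%, 18.0% and 24.8% of those without, a lower share with Ccl8 in 4 of 4 libraries.

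Between the treatment groups, Cx3cr1 was the member that changed. In phagocytes it was at 155 and 105 CPM in the LNP-Sirpa libraries and 312 and 314 CPM in the control libraries, or 130 ± 35.0 CPM against 313 ± 1.86 CPM (SD, n = 2 libraries each). Both LNP-Sirpa libraries lay below both controls, and LNP-Sirpa 2 was the lowest. The fitted difference was a log2 fold change of -1.15 (SE 0.19, adjusted p = 0.0457 by edgeR's quasi-likelihood test with Benjamini-Hochberg adjustment). It was the 1 called member of 6 in phagocytes, where 1.74% of 16184 genes were called. Comparisons of the groups that leave out 1 library have a single library in 1 group. A p-value there measures the spread of the other group only. Without control 1 the value was -1.19 (adjusted p = 0.21), without control 2 -1.10 (adjusted p = 0.167), and with the mixed cells kept -1.16 (adjusted p = 0.0734), so the size held while the call did not.

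The phagocyte gate holds a different mixture of cells in the groups. Its summed monocyte markers were 1070 and 793 CPM in the LNP-Sirpa libraries and 245 and 205 CPM in the control libraries, and its macrophage markers were 15155 and 13364 CPM in the LNP-Sirpa libraries and 17371 and 23828 CPM in the control libraries. Within macrophages the Cx3cr1 difference was -0.88 (SE 0.21, adjusted p = 0.134), where 0.0268% of genes were called, and within monocytes -0.91 (SE 0.19, adjusted p = 0.0625), where 0.825% were called. In both gates the groups did not overlap, which for 2 against 2 libraries has a two-sided exact permutation p of 0.33. The share of all genes with such groups was not counted. Neither difference passed by edgeR's test. With DESeq2 both passed (adjusted p = 0.00292 in macrophages and 0.021 in monocytes), as they did without a filter on low counts (0.0152 and 0.00431). With each library left out, the macrophage value ran from -1.06 to -0.72 and the monocyte value from -0.94 to -0.87. The monocyte difference passed without the cells of highest UMI count (0.0462) too. Monocytes had a thinned Cx3cr1 share close to that of T cells, and the part of free RNA in their difference was not tested. The thinned share of macrophages with a Cx3cr1 UMI was 25.2 ± 5.79% in the LNP-Sirpa libraries and 45.4 ± 3.09% in the control libraries (SD, n = 2 each, two-sided exact permutation p = 0.33, the smallest this design allows).

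Cx3cr1 was also lower in both LNP-Sirpa libraries than in both control libraries in CD8 T cells, regulatory T cells and fibroblasts, and among these the CD8 T cell difference passed. In CD8 T cells the log2 fold change was -1.09 (SE 0.23, adjusted p = 0.0261, where 0.758% of genes were called), in regulatory T cells -1.17 (SE 0.27, adjusted p = 0.0664, where 0.399% were called) and in fibroblasts -1.003 (SE 0.21, adjusted p = 0.126, where 0.224% were called). The CD8 T cell call was lost without control 1 (adjusted p = 0.0767), after thinning (adjusted p = 0.0917), with DESeq2 (adjusted p = 0.106) and without the cells of highest UMI count (adjusted p = 0.0534). Without a filter on low counts the regulatory T cell and fibroblast differences passed (adjusted p = 0.0309 and 0.00114). The regulatory T cell one passed without the cells of highest UMI count (0.0429). With each library left out, the values ran from -1.20 to -1.09 in regulatory T cells and from -1.12 to -0.85 in fibroblasts. In NK cells the groups overlapped, with 25.2 and 60.6 CPM in the LNP-Sirpa libraries and 53.4 and 69.6 CPM in the control libraries. The NK value was -0.68 (adjusted p = 0.644), and -1.33 without LNP-Sirpa 2. Other T cells overlapped as well, with 60.4 and 42.7 CPM in the LNP-Sirpa libraries and 58.0 and 112 CPM in the control libraries. Their value was -0.80 (adjusted p = 0.269), and -1.12 without control 1. In dendritic cells the value was -0.25 (adjusted p = 0.846), and -1.01 without LNP-Sirpa 2. B cells, not tested, numbered only 9 and 5 in the LNP-Sirpa libraries and 19 and 27 in the control libraries. Their Cx3cr1 values, 103 and 237 CPM in the LNP-Sirpa libraries and 52.3 and 87.4 CPM in the control libraries, rest on these few cells. Macrophage markers in the CD8 T gate were 1923 and 1462 CPM in the LNP-Sirpa libraries and 3562 and 4004 CPM in the control libraries. In the fibroblast gate these markers were 857 and 1003 CPM in the LNP-Sirpa libraries and 1433 and 1644 CPM in the control libraries. Cx3cr1 itself was low there, at 15.7 to 38.5 CPM, and at 38.8 to 88.3 CPM in regulatory T cells. In the CD8 T and fibroblast gates the macrophage markers moved the same way as Cx3cr1. The part of free RNA in the T-cell and fibroblast differences was not tested.

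**Figure D5:**
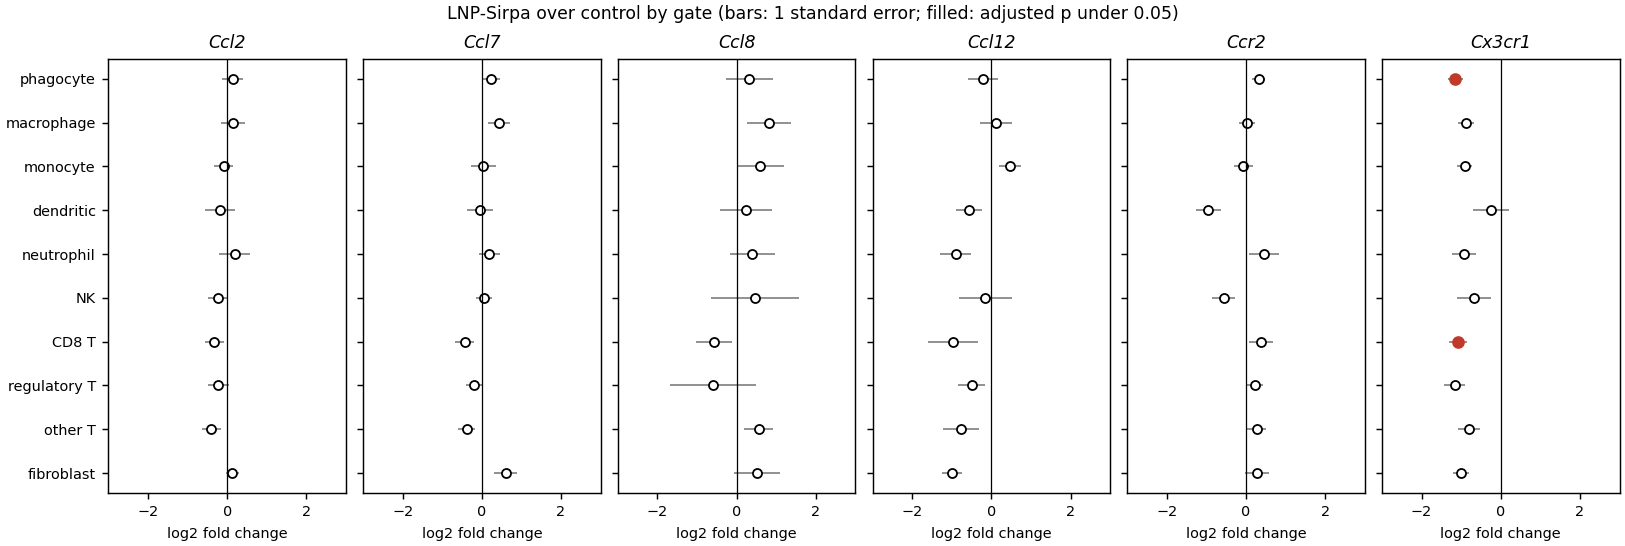
Log2 fold change of LNP-Sirpa over control (horizontal axis, edgeR, bars of 1 SE) for each member in each tested gate, with filled points for an adjusted p under 0.05. Cx3cr1 lies at -0.88 to -1.17 in phagocytes, macrophages, monocytes, CD8 T cells, regulatory T cells, neutrophils and fibroblasts and at -0.25 to -0.80 in dendritic, NK and other T cells. 2 of the 60 pairs of member and gate passed an adjusted p of 0.05, Cx3cr1 in phagocytes and in CD8 T cells.

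In the reported fit, with all 4 libraries, no replicate block and the filter on low counts, the ligands and Ccr2 passed in no gate. The library spread was wide for some of them. The gates not named so far called 2.13% of genes in neutrophils and 0.803% in other T cells, and 0 of 9446 genes in dendritic cells, where 1037 genes had an unadjusted p under 0.05 and DESeq2 called 61 higher and 5 lower. Ccl2 in phagocytes was at 688 and 848 CPM in the LNP-Sirpa libraries and 907 and 654 CPM in the control libraries (0.13, SE 0.27, adjusted p = 0.838), with overlapping groups. Ccl7 was at 1633 and 1697 CPM in the LNP-Sirpa libraries and 1668 and 1473 CPM in the control libraries (0.23, SE 0.23, adjusted p = 0.65). In macrophages alone both LNP-Sirpa libraries were above both controls for Ccl7, and the difference did not pass (0.43, SE 0.28, adjusted p = 0.565). In monocytes Ccl7 had a log2 fold change of 0.04 and Ccl2 one of -0.08, both with standard errors above these values.

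Ccl8 in phagocytes was at 1161 and 502 CPM in the LNP-Sirpa libraries and 355 and 1056 CPM in the control libraries (0.31, SE 0.59, adjusted p = 0.827), and Ccl12 was at 1306 and 655 CPM in the LNP-Sirpa libraries and 1597 and 869 CPM in the control libraries (-0.22, SE 0.38, adjusted p = 0.81). Each group held a high and a low library for both genes. Without control 2 the Ccl8 value was 1.36 and without control 1 it was -0.29, and without LNP-Sirpa 1 it was -0.26, so single libraries set its sign. In monocytes Ccl8 and Ccl12 were at 0.60 (adjusted p = 0.779) and 0.47 (adjusted p = 0.576), and at 1.16 and 0.84 without LNP-Sirpa 2. With a standard error of 0.59 for Ccl8, a log2 difference of its fitted size was not detectable here. Ccr2 in phagocytes was at 211 and 170 CPM in the LNP-Sirpa libraries and 178 and 157 CPM in the control libraries (0.32, SE 0.16, adjusted p = 0.327). Within macrophages the Ccr2 difference was 0.02 (SE 0.21, adjusted p = 0.983) and within monocytes -0.07 (SE 0.24, adjusted p = 0.95), and the LNP-Sirpa phagocytes held more monocyte markers.

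Outside the phagocytes, Ccl7 in fibroblasts was at 432.5 and 231 CPM in the LNP-Sirpa libraries and 269 and 196 CPM in the control libraries (0.60, SE 0.29, adjusted p = 0.468), with overlapping groups. Ccl12 in fibroblasts was at 59.8 and 33.5 CPM in the LNP-Sirpa libraries and 106 and 92.0 CPM in the control libraries (-0.99, SE 0.25, adjusted p = 0.199). Its fibroblast level was 3.18%, 3.41%, 5.45% and 9.63% of the macrophage level, beside 3.95%, 5.26%, 7.09% and 6.83% for the C1q transcripts. In fibroblasts the Ccl7 value was 0.95 without LNP-Sirpa 2, and the Ccl12 value was -1.42 without LNP-Sirpa 1. Ccr2 in regulatory T cells did not pass (0.22, SE 0.20, adjusted p = 0.854), nor in NK cells (-0.57, SE 0.28, adjusted p = 0.525, where 0.544% of genes were called). Without LNP-Sirpa 1, the NK value was -1.15 and rests on the LNP-Sirpa 2 gate described above. Ccr2 in dendritic cells was at -0.95 (adjusted p = 0.423), and at -1.26 without LNP-Sirpa 2.

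Ccl12 in CD8 T cells, where its level followed the C1q transcripts, had a difference of -0.96 (SE 0.64, adjusted p = 0.834). It passed without a filter on low counts (-0.91, adjusted p = 0.0396). The value was -1.73 without LNP-Sirpa 1 and -1.43 without control 2, fits that leave 1 library in a group. Without LNP-Sirpa 1 the Ccl12 value was -1.54 in neutrophils, -1.09 in NK cells, -1.66 in other T cells and -0.99 in dendritic cells. In the same fits without LNP-Sirpa 1, Ccl8 was at -1.27 in CD8 T cells and -2.23 in regulatory T cells. Without control 2 it was at 1.83 in NK cells. With all 4 libraries Ccl8 did not pass in CD8 T cells (-0.58, adjusted p = 0.858), regulatory T cells (-0.60, adjusted p = 0.949) or NK cells (0.45, adjusted p = 0.943).

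The other genes of the circuit were counted by list in phagocytes, where 1.74% of all genes were called. None of the 12 tested further ligands and receptors passed, with a median log2 fold change of 0.42 against -0.01 over all genes. Of 19 genes of receptor signalling, 1 rose: Jak2, a cytokine receptor kinase, at 61.5 and 46.4 CPM in LNP-Sirpa and 25.7 and 28.4 CPM in control phagocytes (1.12, SE 0.15, adjusted p = 0.0339). Of 16 inducers and regulators of chemokine transcripts, 1 rose: the cytokine Il6, at 8.77 and 9.84 CPM in LNP-Sirpa and 2.42 and 3.03 CPM in control phagocytes (1.91, SE 0.24, adjusted p = 0.0321). Both calls were lost without control 1 (adjusted p = 0.206 for Jak2 and 0.138 for Il6), without control 2 (0.0899 and 0.0517) and with the mixed cells kept (0.072 and 0.0706). None of 11 adhesion genes passed (median 0.48).

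Patrolling-monocyte genes, the class in which Cx3cr1 is a textbook marker, had lower values in LNP-Sirpa monocytes. All 9 tested genes had a negative log2 fold change, with a median of -1.21 against -0.005 over all genes tested there, and 1 of them passed, where 0.825% of all genes tested in monocytes did. That gene was Ace, angiotensin-converting enzyme, which fell to 1.81 and 3.18 CPM in LNP-Sirpa monocytes, against 33.3 and 33.1 CPM in control monocytes (-3.66, SE 0.34, adjusted p = 0.00108). Nr4a1, the transcription factor that patrolling monocytes need, was at -0.99 (adjusted p = 0.074), and Adgre4 was at -2.06 (adjusted p = 0.061). In the whole phagocyte gate 0 of the 9 passed and the median was -0.09. In monocytes 1 of the 8 tested further ligands and receptors also passed, Ccl5, a chemokine that draws T cells and monocytes, at 554 and 456 CPM in LNP-Sirpa and 175 and 273 CPM in control monocytes (1.22, SE 0.24, adjusted p = 0.0494). Without control 1 the monocyte Ccl5 value was 0.90 (adjusted p = 0.367), with looser gates 1.32 (adjusted p = 0.311), without Ly6c2 and Plac8 among the markers 0.88 (adjusted p = 0.088) and with DESeq2 size factors 1.20 (adjusted p = 0.0608). In fibroblasts Ccl5 passed as well (2.02, SE 0.21, adjusted p = 0.026). This call was lost with a replicate block (adjusted p = 0.147), without control 1 and without control 2.

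Genes with the most similar pattern were found from the Pearson correlation of log2(CPM + 1) over 48 sums of 12 gates in 4 libraries, as a description, since the sums share libraries and the gates share free RNA. Ccl2 was most like Ctsl (r = 0.91), Cstb (0.90) and Pgam1 (0.88), and its r with Ccl7 was 0.89. Among the genes most like Ccl7 were Cndp2 (0.92) and C3ar1 (0.90). Ccl8 was most like Apoe (0.87), C1qa (0.76) and Ms4a7 (0.74), and Ccl12 most like Pf4, C1qb and Ms4a7 (0.91 each). Among the genes most like Ccr2 were Pycard (0.85) and Galnt6 (0.81). Cx3cr1 was most like Prxl2b (0.89), C1qa (0.87) and C1qc (0.87). The C1q genes, Apoe and Ms4a7 were themselves used in the gates.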

How the data were processed

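The deposited files are UMI counts per gene and cell barcode, written by PISA 1.0 per the file headers, and the submitters' processing notes name STAR 2.5.1b and GRCm39. The rule by which the authors called cells is not given in the sources used here. The 4 oligo libraries of the series were not analysed here. The 4 cDNA libraries were joined on 27405 genes, and a barcode was kept when it had 500 or more UMIs, 300 or more genes and a mitochondrial share of 15% or less. Cells were gated by marker-list UMIs per 10000 UMIs: phagocyte, NK, B, fibroblast and dendritic at 16, T cell at 8, mast and neutrophil at 32, then macrophage at 100 without reaching 8 for the monocyte list, and monocyte at 8 without reaching 100 for the macrophage list. Some cells that met several classes were left out as mixed, and no doublet caller was run. The neutrophil and mast gates kept cells over the phagocyte threshold when their own marker count was higher. Cells over both the T cell and NK thresholds went to the gate with the higher count. Dendritic markers excluded no cell from another gate. Gate thresholds were set after marker distributions were seen, and the members and lists were chosen with earlier results of these data known. Gate sizes were not compared between groups, since Ly6c2 and Plac8 are gate markers. Counts were summed per library and gate, for gates with at least 20 cells in each library, and tested with the robust quasi-likelihood F test of edgeR 4.0.16 (R 4.3.3) after filterByExpr and TMM scaling, with Benjamini-Hochberg adjustment over all genes of a gate and a threshold of 0.05. Monocyte and macrophage sums were compared with library as a block. CPM divides by the summed UMIs of the gate. Shares of cells used 95% Wilson intervals and two-sided exact permutation tests over libraries, after thinning to 2000 UMIs, which leaves out shallower cells. DESeq2 1.42.0, the other size factors, no filter, looser and stricter gates, kept mixed cells, thinned cells, cells without the highest UMI counts, a replicate block and the leaving out of each library were alternatives. On simulated counts for the phagocyte gate (15867 genes), the test recovered 34.3% of genes changed by a log2 of 1 and 86.6% of those changed by 2. Named genes are all 6 members, Sirpa, list genes past the threshold, and genes among the 3 most correlated of each member. Outside this rule, the list genes Nr4a1 and Adgre4, which did not pass, and the ligand Cx3cl1 were named as well. The labels do not say whether a replicate number pairs samples. Deviations of the libraries numbered 1 had a correlation of 0.026 over 16184 genes, which cannot settle it with 2 libraries per group. The reported fit uses no replicate block, and the block is given as an alternative. Results for some genes of these lists are not reported here.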

Additional observations from a re-analysis of the deposited data

How the results depend on the processing

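In phagocytes Cx3cr1 stayed between -1.32 and -0.99 when each library was left out, and the call was lost without control 1, without control 2 and with the mixed cells kept (-1.16). With a replicate block its value was -1.15 (adjusted p = 0.0497). With that block Cx3cr1 in monocytes (adjusted p = 0.0153) and regulatory T cells (0.0449) and Ccl12 in CD8 T cells (0.0375) and neutrophils (0.0124) passed. Ccl5 in fibroblasts did not (0.147). Deviations of the libraries numbered 1 had a correlation of 0.026, which cannot settle whether the numbers pair samples. Leaving out each library gave -0.16 to 0.38 for Ccl2, 0.08 to 0.36 for Ccl7, -0.29 to 1.36 for Ccl8, -0.65 to 0.24 for Ccl12 and 0.27 to 0.37 for Ccr2, so the signs of Ccl2, Ccl8 and Ccl12 depended on single libraries. In macrophages these ranges were -0.15 to 0.40 for Ccl2, -0.30 to 0.66 for Ccl12 and -0.21 to 0.21 for Ccr2. In monocytes they were -0.34 to 0.13 for Ccl2, -0.41 to 0.67 for Ccl7, -0.32 to 1.16 for Ccl8, -0.031 to 0.84 for Ccl12 and -0.36 to 0.32 for Ccr2. Other signs turned for Ccr2 in macrophages with stricter gates (-0.23), Ccl2 in monocytes after thinning (0.020) and Ccl7 in monocytes with stricter gates (-0.41). Without thinning, the share differences were 3.31 points for Ccr2 in monocytes, -1.05 points for Ccr2 in CD8 T cells and -17.5 points for Cx3cr1 in NK cells. In monocytes against macrophages, Ccl2 gave 0.37 without Ly6c2 and Plac8, 0.60 with stricter gates and 0.085 to 0.34 with each library left out, and Ccl7 gave -0.59 with DESeq2 and -0.88 to -0.48. The interaction without Ly6c2 and Plac8 was -0.12 for Ccr2, with 14 genes higher and 24 lower, and with each library left out it ran from -0.58 to 0.27 for Ccl2, -0.86 to 0.42 for Ccl7, -0.40 to 0.50 for Ccr2 and -0.15 to 0.25 for Cx3cr1, with 2 to 44 genes higher and 5 to 161 lower. Genes called higher and lower in phagocytes numbered 212 and 69 in the reported fit, 982 and 407 with DESeq2, 738 and 441 without a filter, 320 and 119 with the replicate block, 457 and 196 after thinning, and 24 and 2 with mixed cells kept. Stricter gates gave 112 lower, and leaving out each library gave 22 to 846 higher and 3 to 498 lower. Of the 60 pairs of member and gate, 2 were called in the reported fit, 8 without a filter, 6 with the replicate block, 1 after thinning, and 1 to 13 with a library left out. The causes of these shifts were not tested, except that the fits without a library have fewer samples. In fits that leave 1 library in a group, that library is assumed to vary like the others.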
